A study of Mus musculus with 14 samples.

Results

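The 10 genes described here encode the core machinery of the G1/S transition: the D-type cyclins Ccnd1, Ccnd2 and Ccnd3, the E-type cyclins Ccne1 and Ccne2, the kinases Cdk4, Cdk6 and Cdk2, the retinoblastoma protein Rb1 and the transcription factor E2f1. They were chosen by name, with earlier results of these data known, and were found by matching Entrez gene identifiers to mouse symbols. All 10 were among the 26270 identifiers in the files and all 10 were among the 14327 genes abundant enough to be tested. The study deleted Tip60 (gene Kat5, a histone acetyltransferase of the NuA4/TIP60 complex) in mouse embryonic fibroblasts (MEFs), primary cells isolated here from E13.5 embryos and grown at 3% oxygen. Poly(A)-selected RNA was sequenced from 14 libraries in 4 groups: Tip60-/- cells at day 3 (KO day 3, 3 libraries), Tip60+/+ cells at day 3 (control day 3, 3 libraries), Tip60-/- cells at day 5 (KO day 5, 4 libraries) and Tip60+/+ cells at day 5 (control day 5, 4 libraries). Days count from the start of treatment with 250 nM 4-hydroxytamoxifen (4-OHT), the drug that induced the deletion. The labels carry the same treatment line for both genotypes, and the sources used here name neither the Cre driver nor the deleted exons.

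A D-type cyclin binds Cdk4 or Cdk6, and the active kinase phosphorylates Rb1 and its relatives. Phosphorylated Rb1 releases E2F factors, which switch on genes for DNA replication and also Ccne1, Ccne2 and E2f1. Cyclin E with Cdk2 then phosphorylates Rb1 further. In fibroblasts, serum growth factors induce D-type cyclins, most of all Ccnd1, and so link this switch to mitogens.

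Upstream sequences of a pair of these genes are shown because their KO responses differed in kind: Cdk4 was lower in KO cells on both days, and Ccne1 was higher in KO cells on one day and lower on the other. Each is the 250 bases before a RefSeq transcript start (GRCm38.p6, the same chromosome sequences as mm10), read 5′ to 3′ on the gene's strand. Capitals mark CACGTG, the E-box bound by MYC/MAX and related factors.
Cdk4, chr10:127063285-127063534 (+): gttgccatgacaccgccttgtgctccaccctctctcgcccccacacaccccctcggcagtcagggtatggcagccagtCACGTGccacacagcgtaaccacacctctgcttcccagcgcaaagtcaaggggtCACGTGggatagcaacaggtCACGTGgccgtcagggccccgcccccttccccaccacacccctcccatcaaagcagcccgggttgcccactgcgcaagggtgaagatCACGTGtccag
Ccne1, chr7:38107491-38107740 (-): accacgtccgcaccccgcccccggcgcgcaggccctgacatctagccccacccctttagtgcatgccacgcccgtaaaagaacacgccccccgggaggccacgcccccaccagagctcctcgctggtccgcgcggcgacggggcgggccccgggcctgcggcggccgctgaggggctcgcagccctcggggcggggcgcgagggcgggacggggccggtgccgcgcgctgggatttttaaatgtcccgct

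The Cdk4 window held 4 CACGTG motifs, which lie 172, 118, 98 and 11 bases before the start. Of 32851 RefSeq windows of the same length, 6.02% held at least 1 CACGTG and 7 windows (0.0213%) held at least 4. A search for the E2F motifs TTTGGCGC, TTTCCCGC, TTTCGCGC and TTTGCCGC on both strands, which 1.86% of windows held, gave no match in the Cdk4 or the Ccne1 window. CACGTG reads the same on both strands, so each site was counted once. RefSeq windows were found for 6 of the 10 genes. Among these, the Cdk6 window held 1 CACGTG, and the Cdk2 window, not near a GENCODE transcript start, held 1 E2F motif. A match describes these letters and does not show binding.

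Kat5 itself checked the labels. It measured 21.1, 20.2 and 18.3 CPM (the count relative to the scaled total of its library) in KO day 3 cells, against 31.5, 32.3 and 32.0 CPM in control day 3 cells. It measured 17.3, 17.8, 19.9 and 18.7 CPM in KO day 5 cells, against 30.9, 29.8, 32.1 and 30.9 CPM in control day 5 cells. Every KO library lay below every control library, and the fall was by 0.68 ± 0.086 at day 3 and by 0.75 ± 0.071 at day 5 on the log2 scale (fit ± SE, adjusted p = 2.02e-05 and 1.59e-06, edgeR's quasi-likelihood test). The counts cover the whole gene, reads outside the deleted part included. Kat5 in KO cells stood at 62.3% of control at day 3 and 59.6% at day 5. How complete the deletion was cannot be read from these counts and was not tested.

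Library totals were 2187168 to 39203154 counts, and the smallest count of any of the 10 genes in a library was 21, for Cdk6 in KO day 3 replicate 3, the shallowest library. Fibroblast markers were present in all groups, 10 of 10 of the list, with summed levels of 27311 to 27754 CPM in KO day 3, 16735 to 20397 CPM in control day 3, 16241 to 19497 CPM in KO day 5 and 21025 to 25800 CPM in control day 5. The 7 cartilage markers summed to 2304 to 2705 CPM in KO day 3 and 1839 to 3801 CPM in KO day 5. They summed to 74.2 to 169 CPM in control day 3, with Matn1 at 0, and to 182 to 358 CPM in control day 5 replicates 1 to 3, but to 2607 CPM in control day 5 replicate 4. Of the other lists, the 7 macrophage markers summed to 49.7 to 70.3 CPM in KO and 78.7 to 106 CPM in control cells at day 3, and overlapped at day 5. The 6 endothelial markers, with Cldn5 at 0 outside KO day 5, summed to 16.0 to 17.9 CPM in KO and 11.6 to 15.8 CPM in control cells at day 3, and to 14.6 to 18.2 CPM in KO and 5.70 to 8.87 CPM in control cells at day 5. The 6 skeletal muscle markers overlapped at day 3. At day 5 they summed to 184 to 281 CPM in KO and 347 to 420 CPM in control cells. Of these markers, Ckm was at 0 outside control day 3, and Myf5 and Myog were at 0 in control day 3. The 6 neural and glial markers summed to 53.1 to 76.0 CPM in KO and 38.4 to 44.9 CPM in control cells at day 3, and overlapped at day 5, and the 6 epithelial markers overlapped on both days. Control day 5 replicate 4 also came from another litter and is the one male control. No litter gave both genotypes, and 5 of 7 KO but 1 of 7 control libraries were from males. Litter and genotype therefore cannot be told apart, and the part of these other cell types in the results below was not tested. In RNA from whole cultures, fewer cells of a type and less RNA per cell cannot be told apart.

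At day 3 the KO cells had more mRNA of both E-type cyclins, of Ccnd1 and Ccnd3, and of Rb1, and less of Cdk4 and Cdk2. At day 5 the cyclins Ccnd2, Ccnd3 and Ccne1 and the kinases Cdk4, Cdk6 and Cdk2 were lower in KO cells than in control cells, and Rb1 was higher, while Ccnd1 and Ccne2 were not called. E2f1 mRNA was called different at neither day. Thus 7 of the 10 genes were called at day 3, 5 higher and 2 lower, where 50.9% of all tested genes were called (24.6% higher and 26.2% lower). At day 5 again 7 of 10 were called, 1 higher and 6 lower, where 52.5% of all tested genes were called (26.3% higher and 26.2% lower). Called means an adjusted p below 0.05, with the adjustment over all 14327 tested genes. About as many of the tested genes were called as not on each day, and the 7 of 10 are read against that. KO and control ranges were apart for 8 of the 10 genes at day 3 and for 6 at day 5, where they were apart for 57.8% and 47.4% of all tested genes. The median log2 change of the 10 was 0.20 at day 3 and -0.31 at day 5, where the median over all tested genes was -0.0036 and 0.021. Both counts were 7 again without KO day 3 replicate 3 and control day 5 replicate 4.

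**Figure D1:**
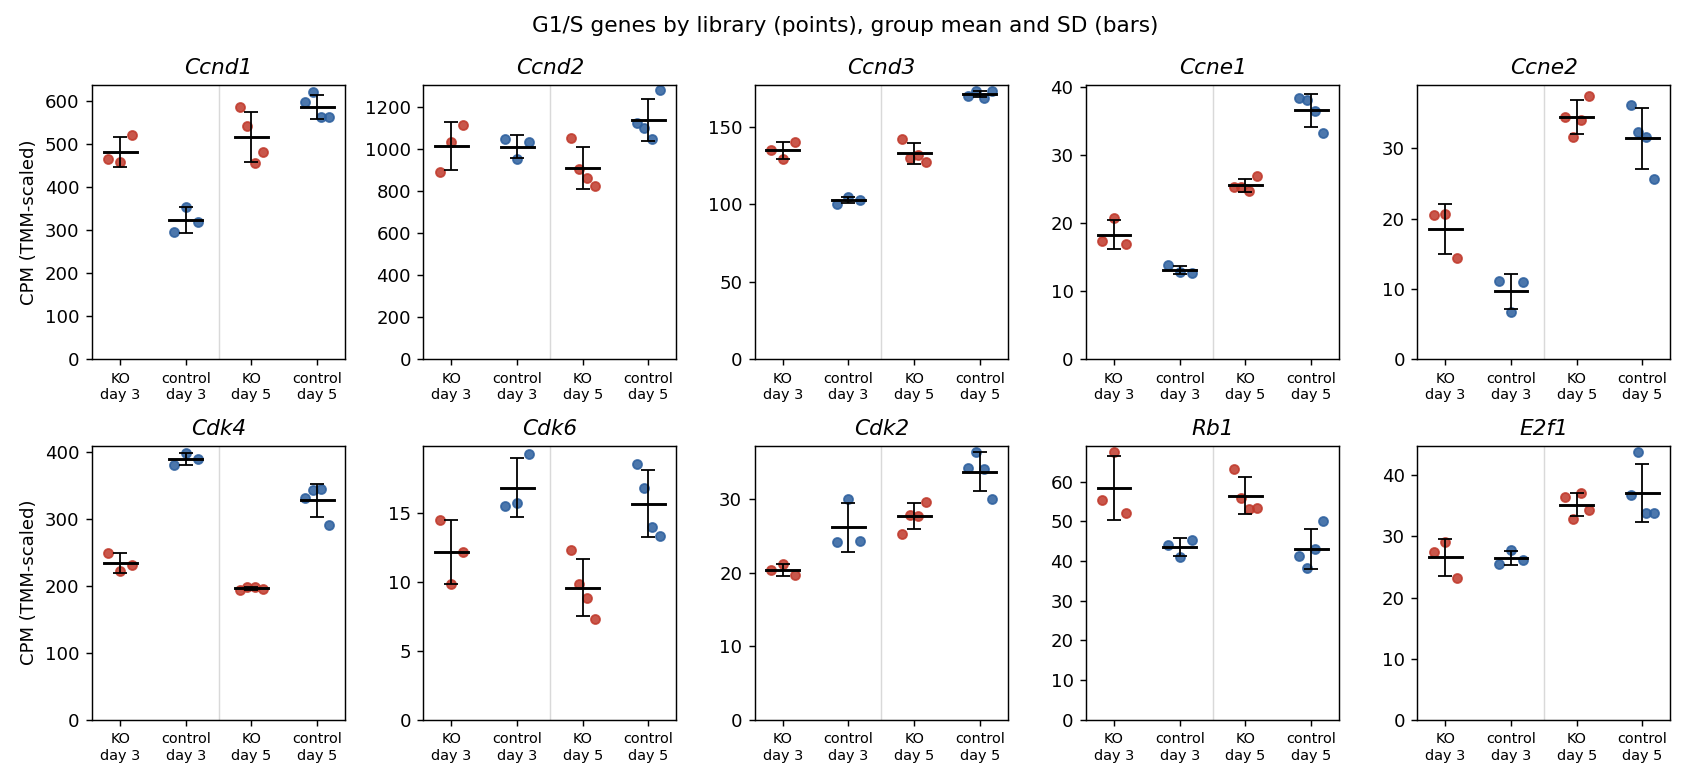
TMM-scaled CPM of the 10 genes in each library (points, KO red and control blue), with the group mean (line) and SD (bars), for n = 3 libraries a group at day 3 and 4 at day 5. The 7 KO points of Cdk4 lie between 195 and 249.9 CPM, below all 7 control points, while Ccnd3 in KO cells lies above control at day 3 and below control at day 5.

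Ccnd1, the D-type cyclin best known as a mitogen sensor, measured 466, 459 and 521 CPM in KO day 3 libraries, against 296, 355 and 319 CPM in control day 3 libraries. All KO values were above all control values, a log2 change of 0.58 ± 0.104 (adjusted p = 0.00041). The day 5 values were 587, 542, 457 and 482 CPM in KO cells, against 598, 622, 563 and 564 CPM in control cells. The ranges overlapped, through KO day 5 replicate 1, and the log2 change was -0.18 ± 0.0894 (adjusted p = 0.10). Without that library it was -0.25 with adjusted p = 0.0346.

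Ccnd3, which pairs with Cdk4 and Cdk6 as the other D-type cyclins do, measured 135, 129 and 140.3 CPM in KO day 3 cells, against 100.3, 105 and 103 CPM in control day 3 cells. In KO day 5 cells it measured 142, 129.9, 131 and 127 CPM, against 169.99, 173, 169 and 173 CPM in control day 5 cells. The groups did not overlap on either day and the order turned over: the log2 change was 0.40 ± 0.0624 at day 3 (adjusted p = 0.000133) and -0.37 ± 0.053 at day 5 (adjusted p = 6.17e-05). In KO cells the group means were 133 ± 6.6 CPM at day 5 and 135 ± 5.57 CPM at day 3 (SD, n = 4 and 3).

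Ccnd2, the most abundant D-type cyclin in these cells per kilobase, measured 889.6, 1036 and 1117 CPM in KO day 3 cells, against 1050.1, 951 and 1035 CPM in control day 3 cells. These ranges overlapped almost wholly, and the log2 change was 0.00 ± 0.116 (adjusted p = 0.989). The day 5 values were 1052, 907, 861 and 825 CPM in KO cells, against 1127, 1099, 1050.2 and 1282 CPM in control cells. The log2 change of -0.32 ± 0.10 passed the test (adjusted p = 0.0143), although KO replicate 1 lay just above control replicate 3.

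Ccne1, the cyclin that activates Cdk2 late in G1, measured 17.3, 20.7 and 16.9 CPM in KO day 3 libraries, against 13.8, 12.8 and 12.7 CPM in control day 3 libraries. In KO day 5 libraries it measured 25.2, 25.3, 24.6 and 26.9 CPM, against 38.4, 38.1, 36.5 and 33.2 CPM in control day 5 libraries. Neither pair of groups overlapped. The log2 change was 0.44 ± 0.0978 at day 3 (adjusted p = 0.00179) and -0.52 ± 0.0756 at day 5 (adjusted p = 6.42e-05).

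Ccne2, its paralog, measured 20.5, 20.7 and 14.4 CPM in KO day 3 cells, against 11.2, 6.70 and 11.01 CPM in control day 3 cells. The groups were apart and the log2 change, 0.94 ± 0.195, was the largest rise among the 10 genes at that day (adjusted p = 0.00118). At day 5 the values were 34.5, 31.6, 34.1 and 37.5 CPM in KO cells, against 36.2, 32.4, 31.6 and 25.7 CPM in control cells. Here the ranges overlapped and the log2 change was 0.13 ± 0.147 (adjusted p = 0.475).

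Cdk4, the kinase partner of the D-type cyclins, had the smallest p-value of the 10 genes on both days. It measured 249.9, 222 and 231 CPM in KO day 3 libraries, against 381, 399 and 389 CPM in control day 3 libraries. It measured 195, 199, 199 and 195 CPM in KO day 5 libraries, against 332, 343, 345 and 291 CPM in control day 5 libraries. KO cells held 60.2% of the control level at day 3 and 60.1% at day 5 (log2 change -0.73 ± 0.0765 and -0.74 ± 0.0658, adjusted p = 4.32e-06 and 1.02e-06), with no overlap. The upstream window of Cdk4 held the 4 E-boxes given above, and whether these sites bear on its level was not tested.

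Cdk6, the second kinase partner of the D-type cyclins, measured 14.5, 9.86 and 12.2 CPM in KO day 3 cells, against 15.5, 15.7 and 19.3 CPM in control day 3 cells. These values were apart but missed the threshold, with a log2 change of -0.40 ± 0.195 (adjusted p = 0.0971). At day 5 it measured 12.3, 9.87, 8.89 and 7.33 CPM in KO cells, against 18.6, 16.8, 14.0 and 13.4 CPM in control cells. Every KO value was below every control value and the log2 change was -0.71 ± 0.163 (adjusted p = 0.00225). The 2 log2 changes differed by -0.31 ± 0.254 (adjusted p = 0.454), so a difference between the days was not shown.

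Cdk2, the partner of the E-type cyclins, measured 20.3, 21.1 and 19.6 CPM in KO day 3 libraries, against 24.1, 29.98 and 24.3 CPM in control day 3 libraries. At day 5 it measured 25.3, 27.8, 27.7 and 29.6 CPM in KO libraries, against 34.2, 36.4, 34.1 and 30.04 CPM in control libraries. KO values lay below control values on both days, narrowly at day 5, with log2 changes of -0.37 ± 0.108 and -0.29 ± 0.0872 (adjusted p = 0.0104 and 0.0125). Without control day 3 replicate 2 the day 3 change was -0.26 with adjusted p = 0.0601, and with the day 3 libraries alone in the fit it was -0.34 with adjusted p = 0.0505. With the sex of the embryo in the fit the day 5 change was -0.24 with adjusted p = 0.0507, and with library totals alone it was -0.22 with adjusted p = 0.067. The whole of Cdk2 lies within the span of Pmel in the RefSeq annotation, and the strand setting of the counting is not given, so reads of the pair may not be separable.

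Rb1, the pocket protein that holds E2F factors inactive, measured 55.5, 67.6 and 52.2 CPM in KO day 3 cells, against 44.2, 41.1 and 45.5 CPM in control day 3 cells. It measured 63.3, 56.0, 53.3 and 53.4 CPM in KO day 5 cells, against 41.2, 38.3, 43.0 and 50.1 CPM in control day 5 cells. It was the one member higher in KO cells on both days, without overlap, by 0.40 ± 0.115 and 0.39 ± 0.096 on the log2 scale (adjusted p = 0.00951 and 0.00356). Lpar6 lies inside the Rb1 gene and overlaps it by 2468 bases of the annotation.

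E2f1, the activator E2F that Rb1 restrains, measured 27.5, 29.1 and 23.2 CPM in KO day 3 cells, against 25.5, 27.8 and 26.1 CPM in control day 3 cells. It measured 36.4, 32.9, 37.1 and 34.4 CPM in KO day 5 cells, against 36.8, 43.8, 33.9 and 33.9 CPM in control day 5 cells. The ranges overlapped on both days, with log2 changes of -0.01 ± 0.113 and -0.08 ± 0.0917 (adjusted p = 0.964 and 0.482). A difference between the genotypes in E2f1 mRNA was thus not detectable here.

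**Figure D2:**
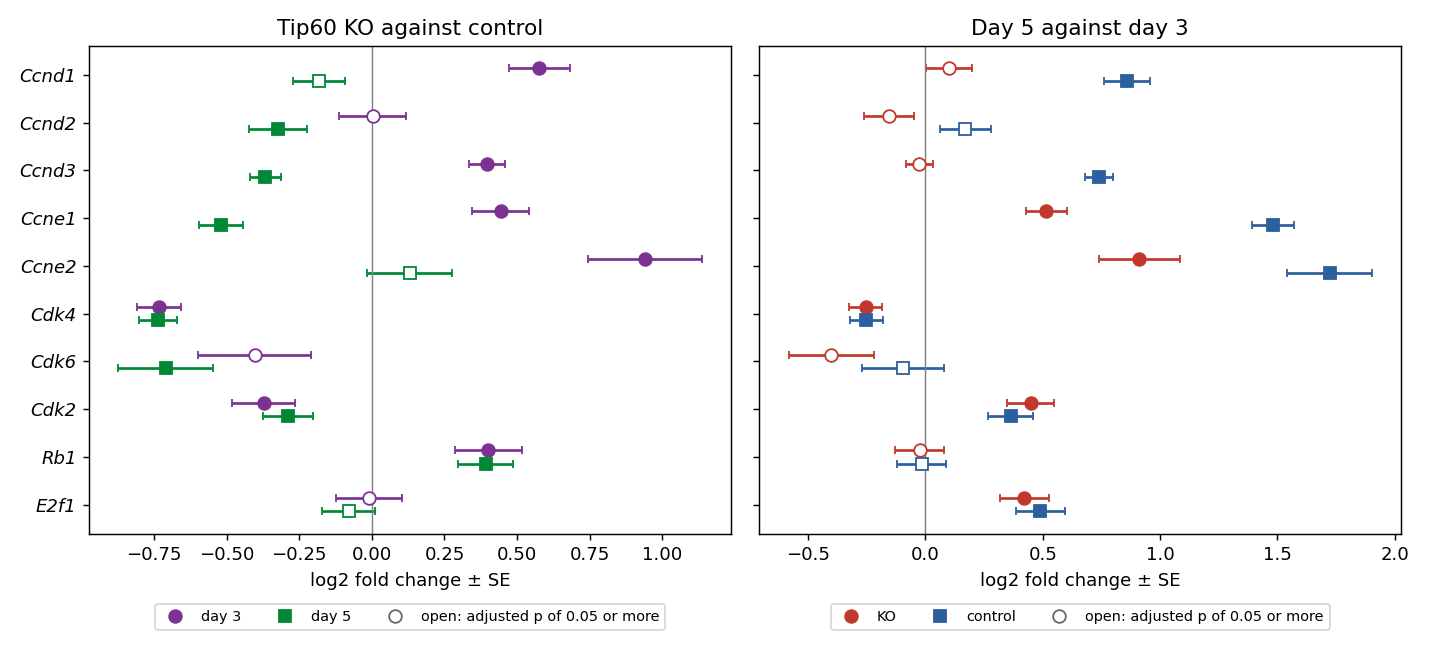
Log2 fold change ± SE of each gene in KO against control at day 3 (purple circles) and day 5 (green squares), left, and in day 5 against day 3 in KO cells (red circles) and control cells (blue squares), right, with open symbols at an adjusted p of 0.05 or more. Left, Ccnd3 and Ccne1 lie on opposite sides of 0 on the 2 days and Cdk4 near -0.73 on both. Right, Ccnd1 and Ccnd3 lie near 0 in KO cells and at 0.86 and 0.74 in control cells.

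Whether the KO effect itself changed between the days was tested as the difference of the 2 log2 changes, day 5 minus day 3. For 4 of the 10 genes it did, all toward lower, where 14.3% of all tested genes were called in this test (7.15% lower and 7.16% higher). The difference was -0.76 ± 0.137 for Ccnd1 (adjusted p = 0.00275), -0.76 ± 0.0819 for Ccnd3 (adjusted p = 9.52e-05) and -0.96 ± 0.124 for Ccne1 (adjusted p = 0.000299). For Ccne2 it was -0.81 ± 0.245 (adjusted p = 0.0399), a call that 11 of 23 alternative settings lost, with adjusted p of up to 0.132, the value without KO day 3 replicate 2 (-0.66). The others were the fits without KO day 3 replicate 3, without KO day 5 replicate 1, 2 or 3, without control day 3 replicate 2 and without control day 5 replicate 1, 2 or 3, the fit with library totals alone, and the fit with the embryo as a block (-0.92, adjusted p = 0.0976). Scaled by library totals alone, 68.1% of all genes called in this test were higher, against 50% with TMM scaling. The 4 genes are cyclins. No kinase passed this test: the difference was 0.00 ± 0.10 for Cdk4, 0.08 ± 0.139 for Cdk2 and -0.31 ± 0.254 for Cdk6 (adjusted p = 0.992, 0.741 and 0.454). Rb1 differed by -0.01 ± 0.149 and E2f1 by -0.07 ± 0.146 (adjusted p = 0.98 and 0.808). The fifth cyclin, Ccnd2, gave -0.33 ± 0.153 (adjusted p = 0.172).

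The same libraries give the change with time in each genotype, so these values are not independent of those above. In control cells 6 of the 10 genes were higher at day 5 than at day 3 and Cdk4 was lower, where 38.3% of all tested genes were called (18.3% higher and 19.9% lower). The days were apart without overlap for 8 of the 10, against 42.7% of all tested genes. Ccne2 averaged 31.5 ± 4.34 CPM in control cells at day 5 and 9.63 ± 2.54 CPM at day 3 (SD, n = 4 and 3), a log2 change of 1.72 ± 0.18 (adjusted p = 5.48e-06). Ccne1 averaged 36.5 ± 2.41 CPM at day 5 and 13.1 ± 0.606 CPM at day 3, a log2 change of 1.48 ± 0.0889 (adjusted p = 3.45e-08). The E-type cyclins thus had the widest rise with time in control cells. The rise was 0.86 ± 0.0988 for Ccnd1 (adjusted p = 1.26e-05), 0.74 ± 0.0586 for Ccnd3 (adjusted p = 4.82e-07), 0.49 ± 0.103 for E2f1 (adjusted p = 0.00167) and 0.36 ± 0.0966 for Cdk2 (adjusted p = 0.00823). Ccnd2, Cdk6 and Rb1 were not called, with log2 changes of 0.17, -0.09 and -0.02.

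In KO cells 5 of the 10 genes were called between the days, 4 higher and 1 lower at day 5, where 12% of all tested genes were called (4.98% higher and 7.06% lower). The days were apart for 5 of the 10, against 26.9% of all tested genes. Ccne2 averaged 34.4 ± 2.42 CPM in KO cells at day 5 and 18.5 ± 3.57 CPM at day 3, a log2 change of 0.91 ± 0.173 (adjusted p = 0.00331). Ccne1 averaged 25.5 ± 0.958 CPM at day 5 and 18.3 ± 2.06 CPM at day 3, a log2 change of 0.52 ± 0.0885 (adjusted p = 0.00168). Both E-type cyclins therefore rose in both genotypes. Cdk2 rose by 0.45 ± 0.101 (adjusted p = 0.00975) and E2f1 by 0.42 ± 0.105 (adjusted p = 0.0173). Ccnd1 and Ccnd3, which rose in control cells, gave 0.10 ± 0.0971 and -0.02 ± 0.058 in KO cells (adjusted p = 0.579 and 0.857). Cdk4 fell by 0.25 ± 0.0711 in KO cells and by 0.25 ± 0.0705 in control cells (adjusted p = 0.0315 and 0.0116). With the embryo as a block these Cdk4 changes were -0.25 and -0.21, with adjusted p = 0.0781 and 0.118. Without KO day 3 replicate 4 the number of the 10 called in KO cells was 2, since Cdk2 (0.42, adjusted p = 0.0507), E2f1 (0.32, adjusted p = 0.109) and Cdk4 (-0.27, adjusted p = 0.0649) missed the threshold. Without KO day 5 replicate 3 it was 3, with E2f1 at 0.40 and Cdk4 at -0.26 (adjusted p = 0.0506 and 0.0712). The Cdk4 call in KO cells was lost in 9 of 16 alternative settings, the fits without KO day 3 replicate 2 and without each of the KO day 5 libraries in turn among them. Scaled by library totals alone, 72.8% of all genes called in KO cells between the days were higher at day 5, against 41.3% with TMM scaling. The median gene moved by 0.115 on the log2 scale, and Cdk4 was then -0.14 (adjusted p = 0.269).

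Ordered by group mean, control day 3 was the lowest group for 5 genes, Ccnd1, Ccnd3, Ccne1, Ccne2 and E2f1. The E2f1 means of control day 3 and KO day 3 were close, 26.5 and 26.6 CPM, and their libraries overlapped. For Ccne1 no neighbours in the order overlapped: control day 3, KO day 3, KO day 5 and control day 5 followed each other, with the highest mean 2.79 times the lowest. For Cdk4 likewise no neighbours overlapped, in the order KO day 5, KO day 3, control day 5 and control day 3, with a ratio of 1.98. The ratio of highest to lowest mean was 3.58 for Ccne2, whose 2 day 5 groups overlapped, and 1.25 for Ccnd2, whose neighbours all overlapped. Cdk6 had a ratio of 1.76 with each group overlapping its neighbours, Rb1 one of 1.35 and E2f1 one of 1.40.

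**Figure D3:**
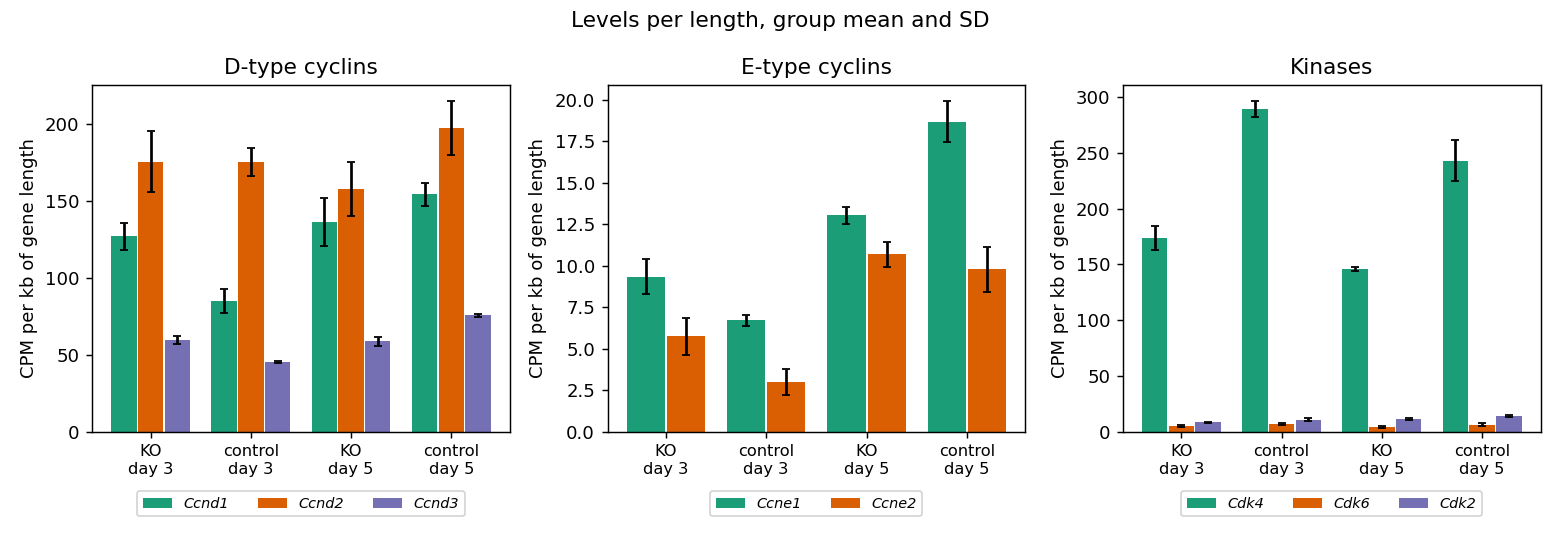
Mean CPM per kilobase of counted gene length ± SD in each group (n = 3 libraries a group at day 3 and 4 at day 5) for the D-type cyclins, the E-type cyclins and the 3 kinases. Cdk4 stands at 146 to 289 CPM per kb and Cdk6 at 3.89 to 6.83 CPM per kb, and the bars of Ccnd1 approach those of Ccnd2 at day 5.

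Levels of different genes were compared per kilobase of the gene length in the files. Among the kinases Cdk4 averaged 174 ± 10.7 CPM per kb in KO day 3, 289 ± 6.94 in control day 3, 146 ± 1.68 in KO day 5 and 243 ± 18.5 in control day 5. Cdk6 averaged 4.93 ± 0.94, 6.83 ± 0.864, 3.89 ± 0.846 and 6.36 ± 0.988 CPM per kb in the same order of groups. Cdk4 made up 96.7% to 98.0% of the summed level of Cdk4 and Cdk6 per length in every library. Its share was 97.3% ± 0.353 in KO and 97.7% ± 0.288 in control cells at day 3 (SD, n = 3 each, exact permutation test, two-sided p = 0.20), and 97.4% ± 0.56 in KO and 97.5% ± 0.334 in control cells at day 5 (n = 4 each, exact p = 0.943).

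Of the D-type cyclins, Ccnd2 was the most abundant per length in every group, at 176 ± 19.99 CPM per kb in KO day 3, 175 ± 9.22 in control day 3, 158 ± 17.3 in KO day 5 and 197 ± 17.4 in control day 5. Ccnd1 supplied 35.1% ± 1.33 of the summed D-type cyclin level in KO day 3 cells and 27.9% ± 2.59 in control day 3 cells. The libraries did not overlap, 33.8% to 36.5% in KO against 25.6% to 30.7% in control, and the exact two-sided p of 0.10 is the smallest that 3 against 3 allows. At day 5 its share was 38.6% ± 1.34 in KO and 36.2% ± 2.07 in control cells, with overlapping ranges (n = 4 each, exact p = 0.0857). Adjusted over the 6 share tests, both p-values were 0.20.

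Of the E-type cyclins, Ccne1 was the more abundant per length in every library. It supplied 54.6%, 56.8%, 54.3% and 54.1% of the summed level in KO day 5 libraries, against 63.6%, 65.9%, 65.5% and 68.0% in control day 5 libraries. All KO shares were below all control shares, a difference of -10.8 percentage points, with an exact permutation p of 0.0286, the smallest that 4 against 4 allows (two-sided, 0.171 adjusted over the 6 share tests). At day 3 the share was 62.1% ± 3.88 in KO and 69.5% ± 5.65 in control cells, with overlapping ranges (n = 3 each, exact p = 0.20). Of the 3 control day 3 libraries 2 came from 1 embryo. All p-values that rest on control day 3, those of the edgeR fit as well as those of the shares, may therefore be too small. Leaving out 1 library at a time, the day 3 differences ranged from -9.4 to -4.16 points for the Ccne1 share, from 6.12 to 8.66 points for the Ccnd1 share and from -0.628 to -0.278 points for the Cdk4 share, and the day 5 difference of the Ccnd1 share from 1.42 to 3.03 points. Shares within a library do not depend on how libraries are scaled to each other.

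A further 78 genes of the pathway, in 7 lists by role, were tested in the same fit. At day 3, 26 were higher and 13 lower in KO cells, where 24.6% of all tested genes were higher and 26.2% lower. At day 5, 12 were higher and 28 lower, where the shares of all tested genes were 26.3% and 26.2%. The number called in both directions lay near the share of all tested genes, 50.9% at day 3 and 52.5% at day 5. The median log2 change of the 78 was 0.29 at day 3 and -0.22 at day 5. These 78, like the 10, lay on balance higher in KO cells at day 3 and lower at day 5. Of the 78, 15 changed their KO effect between the days toward lower and 1 toward higher, where 7.15% and 7.16% of all tested genes did. These counts moved with single libraries: without KO day 3 replicate 2, 13 were higher and 12 lower at day 3 and 8 changed toward lower between the days, without control day 3 replicate 3 that number was 9, and without control day 5 replicate 4 it was 36. With the sex of the embryo in the fit, 37 were higher and 13 lower at day 3, and 12 were higher and 18 lower at day 5.

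**Figure D4:**
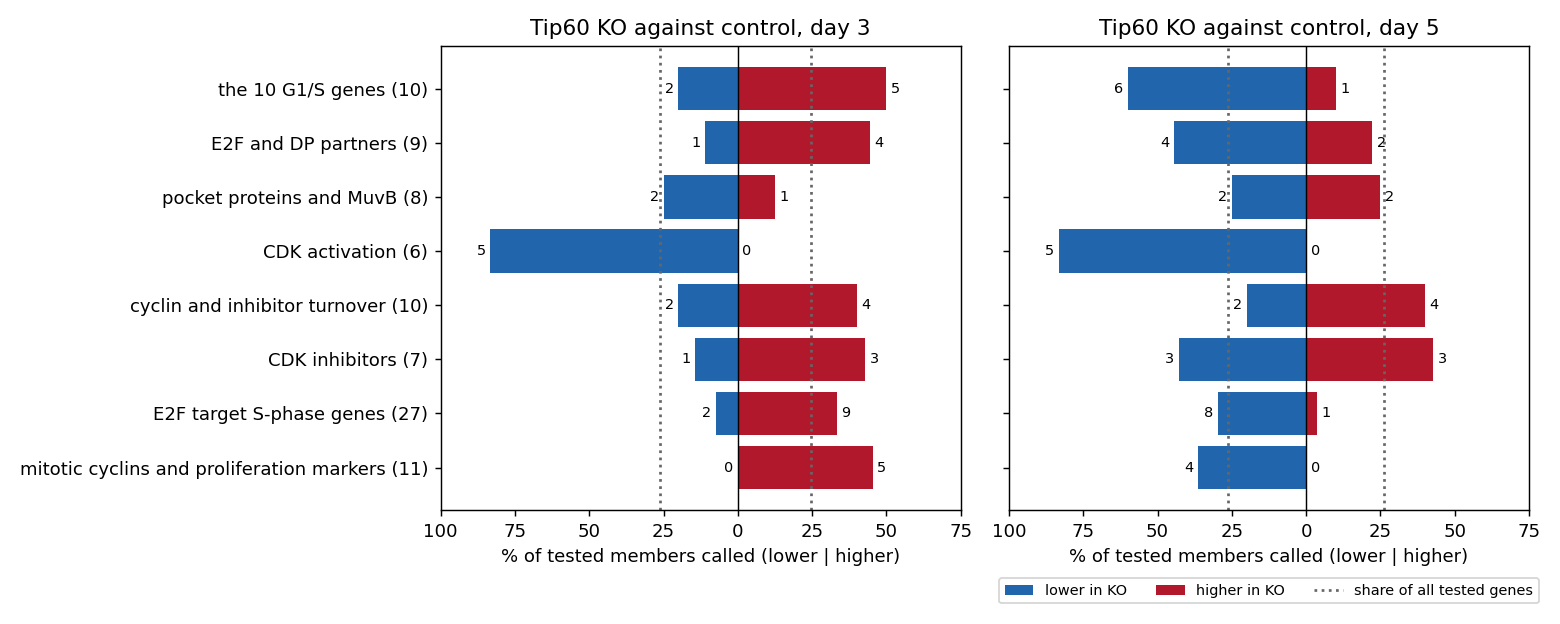
Share of the tested genes of each list called lower (blue, leftward) or higher (red, rightward) in KO against control cells at day 3 (left panel) and day 5 (right panel), with the number of genes at each bar and the list size in brackets. Dotted lines mark the share of all tested genes called in that direction, 26.2% lower and 24.6% higher at day 3, and 26.2% lower and 26.3% higher at day 5. The CDK activation list lies on the lower side on both days.

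Genes that activate or fold the kinases were lower in KO cells on both days, 5 of 6 at day 3 and 5 of 6 at day 5, and none was called higher (median -0.37 and -0.34). On each day 26.2% of all tested genes were called lower. Hsp90ab1, a chaperone on which Cdk4 depends, measured 2086, 1941 and 1960.4 CPM in KO day 3 cells, against 3128, 3154 and 2934 CPM in control day 3 cells. Its day 5 values were 1499.99, 1467, 1593 and 1522 CPM in KO cells, against 2534, 2628, 2482 and 2199 CPM in control cells. The groups were far apart on both days (log2 change -0.62 ± 0.0941 and -0.69 ± 0.0815, adjusted p = 9.8e-05 and 9.81e-06). Cdc37, the co-chaperone that brings Cdk4 to Hsp90, changed by -0.38 ± 0.0846 and -0.56 ± 0.0725 (adjusted p = 0.00177 and 2.2e-05). Cdk7, the catalytic subunit of the CDK-activating kinase, changed by -0.36 ± 0.0697 and -0.32 ± 0.0581 (adjusted p = 0.000703 and 0.000361).

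Of 7 CDK inhibitor genes, 3 were higher and 1 lower in KO cells at day 3, and 3 were higher and 3 lower at day 5 (median 0.14 and 0.015). Over all tested genes, 24.6% were higher and 26.2% lower at day 3, and 26.3% and 26.2% at day 5. Cdkn2c, which encodes the Cdk4/Cdk6 inhibitor p18, measured 11.2, 12.2 and 14.0 CPM in KO day 3 cells, against 3.54, 3.27 and 4.48 CPM in control day 3 cells. That log2 change, 1.73 ± 0.187 (adjusted p = 6.01e-06), was 0.51 ± 0.143 at day 5 (adjusted p = 0.00799). Cdkn2b, which encodes the Cdk4/Cdk6 inhibitor p15, was higher by 0.47 ± 0.10 at day 3 and 0.75 ± 0.0858 at day 5 (adjusted p = 0.00137 and 7.92e-06).

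The inhibitor list did not move in one direction. Cdkn1a, which encodes p21, a p53 target, measured 267, 282 and 310.2 CPM in KO day 3 cells, against 435, 449 and 434 CPM in control day 3 cells. At day 5 it measured 273, 266, 279 and 271 CPM in KO cells, against 468, 461, 440.1 and 532 CPM in control cells. It was lower in all 7 KO libraries (log2 change -0.62 ± 0.0824 and -0.80 ± 0.071, adjusted p = 3.48e-05 and 9.18e-07). Cdkn2a, which encodes p16 and Arf, gave -0.18 ± 0.152 at day 3 (adjusted p = 0.333) and -0.70 ± 0.128 at day 5 (adjusted p = 0.000459).

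Among 9 other E2F and DP genes, 4 were higher and 1 lower at day 3, and 2 higher and 4 lower at day 5 (median 0.11 and -0.17). The shares of all tested genes were 24.6% and 26.2% at day 3, and 26.3% and 26.2% at day 5. The 4 at day 3 became 2 without KO day 3 replicate 2, KO day 3 replicate 3 or control day 3 replicate 2. The activator E2f3 was lower on both days (log2 change -0.58 ± 0.103 and -0.44 ± 0.0856, adjusted p = 0.000382 and 0.000677). The repressor E2f6, which acts without pocket proteins, was higher on both days (0.66 ± 0.129 and 0.50 ± 0.107, adjusted p = 0.000759 and 0.00147). The dimer partner Tfdp2 was higher on both days (0.44 ± 0.142 and 0.74 ± 0.118, adjusted p = 0.0185 and 0.000151), though at day 3 it missed the threshold without KO day 3 replicate 3 (0.27, adjusted p = 0.0678), without control day 3 replicate 1 (0.34, adjusted p = 0.0791) and with the sex of the embryo in the fit (0.30, adjusted p = 0.0922). The other partner, Tfdp1, gave -0.27 ± 0.117 at day 3 (adjusted p = 0.0636) and -0.51 ± 0.0978 at day 5 (adjusted p = 0.000586).

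Of 8 genes of other pocket proteins and of MuvB, the complex that represses cell-cycle genes together with them, 1 was higher and 2 lower at day 3, and 2 were higher and 2 lower at day 5. Calls over all tested genes were 24.6% higher and 26.2% lower at day 3, and 26.3% and 26.2% at day 5. Rbl2, which encodes the pocket protein p130 of quiescent cells, was higher on both days (0.37 ± 0.106 and 0.29 ± 0.089, adjusted p = 0.00996 and 0.0131), as Rb1 was. Without KO day 3 replicate 4 its day 3 change was 0.27 (adjusted p = 0.0621). Rbl1, which encodes p107, gave 0.20 ± 0.138 at day 3 (adjusted p = 0.252) and -0.30 ± 0.107 at day 5 (adjusted p = 0.0297), a call that 8 alternative settings lost (-0.30 to -0.18, adjusted p of 0.0524 to 0.156), the fits without 3 of the KO and 3 of the control day 5 libraries among them. The histone-binding subunit Rbbp4 was lower on both days (-0.35 ± 0.0813 and -0.27 ± 0.0696, adjusted p = 0.00244 and 0.00485).

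In the list of 10 genes for the turnover of cyclins and inhibitors, 4 were higher and 2 lower on each day (median 0.28 and 0.13), but 2 were higher at day 3 without control day 3 replicate 1. For comparison, 24.6% of all tested genes were higher at day 3 and 26.3% at day 5, and 26.2% were lower on each day. Fbxo31, an F-box protein that targets cyclin D1 for degradation, was higher on both days (0.61 ± 0.121 and 0.43 ± 0.0986, adjusted p = 0.000823 and 0.00226). Ambra1, a substrate receptor for D-type cyclins, gave 0.06 ± 0.0802 at day 3 (adjusted p = 0.58) and was higher by 0.30 ± 0.0675 at day 5 (adjusted p = 0.00217). Cks1b, a cofactor in the degradation of p27, was lower on both days (-0.54 ± 0.133 and -0.48 ± 0.11, adjusted p = 0.00384 and 0.00224).

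Of 27 E2F target genes that act in S phase, 9 were higher and 2 lower in KO cells at day 3, and 1 was higher and 8 lower at day 5 (median 0.36 and -0.19). All tested genes gave 24.6% higher and 26.2% lower at day 3, and 26.3% higher and 26.2% lower at day 5. Of the 27, the 8 lower at day 5 lay near that last share. Without KO day 3 replicate 2, 3 were higher at day 3 (median 0.15), and without control day 5 replicate 4, 16 were lower at day 5 (median -0.30). The day 5 number was 5 without KO day 5 replicate 1, and 4 without KO day 5 replicate 4 or without control day 5 replicate 1, 2 or 3. With the sex of the embryo in the fit, 17 were higher at day 3 and 4 lower at day 5. Rrm2, a subunit of ribonucleotide reductase, measured 62.4, 51.7 and 37.2 CPM in KO day 3 cells, against 22.0, 20.2 and 20.2 CPM in control day 3 cells. That log2 change was 1.29 ± 0.176 (adjusted p = 5.22e-05), against 0.02 ± 0.138 at day 5 (adjusted p = 0.916). Mcm5, a subunit of the replicative helicase, was higher by 1.11 ± 0.21 at day 3 (adjusted p = 0.000687), with 0.09 ± 0.162 at day 5 (adjusted p = 0.674).

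The helicase genes did not move as one. Mcm2, of the same complex, measured 38.3, 28.2 and 24.8 CPM in KO day 3 cells, against 77.1, 68.1 and 67.2 CPM in control day 3 cells (log2 change -1.19 ± 0.178, adjusted p = 0.000112). It was lower at day 5 too (-0.76 ± 0.146, adjusted p = 0.000689). Tk1, thymidine kinase, gave 0.38 ± 0.276 at day 3 (adjusted p = 0.264) and -1.05 ± 0.202 at day 5 (adjusted p = 0.000624). With time, 25 of the 27 genes rose in control cells and 16 rose in KO cells, and none fell in either, where 18.3% of all tested genes rose in control cells and 4.98% in KO cells. Without KO day 3 replicate 4 the number that rose in KO cells was 5, and without KO day 3 replicate 3 or KO day 5 replicate 4 it was 7, with 9 and 10 without KO day 5 replicates 3 and 1.

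Mitotic genes, which follow the G1/S genes in the cycle, had 5 of 11 higher and none lower at day 3, and none higher and 4 lower at day 5 (median 0.55 and -0.34). The 11 stand against 24.6% higher and 26.2% lower of all tested genes at day 3, and 26.3% and 26.2% at day 5. Without KO day 3 replicate 2, 2 were higher at day 3, as also without control day 3 replicate 2 or 3. At day 5 the number lower was 7 without control day 5 replicate 4, 1 without control day 5 replicate 2 and 2 without control day 5 replicate 3. With the sex of the embryo in the fit, 10 were higher at day 3 and 1 lower at day 5. Plk1, the mitotic kinase, measured 19.7, 15.03 and 14.4 CPM in KO day 3 cells, against 9.59, 10.05 and 7.93 CPM in control day 3 cells. At day 5 it measured 28.8, 30.3, 34.0 and 34.5 CPM in KO cells, against 49.4, 47.8, 47.1 and 36.7 CPM in control cells. The order of the groups turned over without overlap (log2 change 0.88 ± 0.157 and -0.51 ± 0.117, adjusted p = 0.000387 and 0.00238), the pattern seen for Ccne1 and Ccnd3. In control day 5 replicate 4, the library with high cartilage markers, the 11 genes summed to 635 CPM, the lowest of its group, whose highest was 1026 CPM.

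As a description over the 14 libraries, which share groups and libraries, Pearson's r of log2 CPM was 0.92 between Ccnd1 and Ccnd3, 0.90 between Ccnd3 and Ccne1, 0.87 between Ccne1 and Ccne2 and 0.85 between Cdk4 and Cdk6. It was -0.84 between Cdk4 and Rb1. Of 10700 genes considered, the nearest in pattern to Cdk4 were Cars (0.992) and Iars (0.989), which encode aminoacyl-tRNA synthetases, and 819 genes exceeded 0.9. The nearest to Ccne2 were Fam83d (0.988) and Hmmr (0.982), a pair of mitotic spindle genes, and the nearest to Ccne1 were Rpa1 (0.977) and Kif23 (0.971), which act in DNA replication and in cytokinesis. Nearest to Ccnd1 were Inf2 (0.938) and Armc6 (0.938), to Ccnd3 Ogdh (0.958) and Gna11 (0.956), and to Ccnd2 Pla2r1 (0.928) and Ddi2 (0.889). Nearest to Cdk6 were Spred2 (0.934) and Gpd2 (0.923), and to Cdk2 Usp19 (0.928) and Tfdp1 (0.918). Nearest to Rb1 were Zfp518a (0.949) and Abhd12 (0.945), and to E2f1 Gstcd (0.925) and Hdac7 (0.913).

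By the RefSeq annotation of mm10, Ccnd1 lies at chr7:144929931-144939831, Ccnd2 at chr6:127125162-127152188, Ccnd3 at chr17:47505051-47599689, Ccne1 at chr7:38097984-38107490 and Ccne2 at chr4:11190433-11204779. Cdk4 lies at chr10:127063535-127067288, Cdk6 at chr5:3341004-3531008, Cdk2 at chr10:128697938-128705051, Rb1 at chr14:73192858-73325951 and E2f1 at chr2:154559400-154569892. Besides the overlaps of Cdk2 and Rb1 given above, Ccne2 overlaps Ints8 by 5622 bases and Ccnd2 overlaps 9330179D12Rik by 2800 bases, and Ccnd1 and Ccnd3 overlap a neighbour by 818 and 359 bases. A pseudogene copy of Ccnd3 (Ccnd3-ps) is annotated too, and counts of these genes are uncertain to that extent.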

How the data were processed

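RNA-seq libraries of 14 MEF cultures were prepared with a stranded poly(A) kit and sequenced as 80 bp paired-end reads, per the labels' protocols. The authors deposited counts, whole reads or fragments per gene without normalization, 1 file a library, each with a gene identifier, its length and the count, per the file headers. Reads were assigned with featureCounts to genes of mm10, per the submitters' processing notes, while aligner, annotation and strand setting are not given in the sources here. If strand was ignored, overlapping genes share reads.

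Lines without an identifier (909 of 27179 a file, 0.194% to 0.315% of counts) and 112 sex-linked genes (Xist, Tsix and the Y chromosome) were left out. Symbols matched 25275 of 26270 identifiers. edgeR 4.0.16 (limma 3.58.1, R 4.3.3) was run with filterByExpr, TMM and a robust quasi-likelihood fit (1 mean per group, all 14 libraries), followed by Benjamini-Hochberg adjustment over 14327 tested genes. The SE is the log2 change divided by the square root of F. CPM are TMM-scaled, and log2 CPM used a prior count of 2. Shares of gene pairs or families used exact permutation tests, two-sided. Alternatives were RLE factors, library totals alone, no filter, DESeq2 1.42.0, fewer groups in the fit, sex, replicate blocks, summed libraries of 1 embryo and single libraries left out. The 10 genes and all lists were chosen with earlier results of these data known. Other pathway genes named are, for each list, day and direction, up to 2 called genes with the smallest adjusted p. The nearest genes are the 2 with the highest r among genes with a mean of at least 5 CPM. Genes with a Gm, Rik, LOC or clone name, and identifiers without a symbol, were not considered.

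Embryo labels join libraries of day 3 and day 5 within a genotype. Deviations of such libraries from their group means correlated at -0.0166, -0.0229 and 0.204 in KO cells and at 0.02, 0.0767 and -0.0228 in control cells. Control day 3 replicates 1 and 2 carry the same embryo label, and both were kept, since their counts differed beyond counting noise (chi-square of 15 per degree of freedom), which does not show that they are independent. Control day 3 thus holds 2 embryos in 3 libraries, and a fit with this pair summed was an alternative. Beyond the embryo labels nothing says how far cultures were separate, and p-values measure the spread between these libraries.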

Additional observations from a re-analysis of the deposited data

Results flagged for a closer look

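Libraries far from the rest of their group were looked for in 88 groups of 4 libraries, where chance marks about 1 group in 20. In all, 3 were found, which is not more than chance would mark. All of them were control day 5 replicate 4, so they are not independent of each other. Mcm2 was 53.6 CPM in that library, against 81.5 to 86.8 CPM in the other 3 control day 5 libraries. Rbl1 was 24.6 CPM there, against 30.6 to 31.0 CPM. Rpa2 was 14.4 CPM there, against 18.7 to 19.2 CPM. The same library held 2607 CPM of cartilage markers, and the part of these cells was not tested.

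The KO effect differed between the days, by the test of the difference itself (day 5 minus day 3, log2, edgeR's quasi-likelihood test), for 4 of the 10 genes: Ccnd1 (-0.76), Ccnd3 (-0.76), Ccne1 (-0.96) and Ccne2 (-0.81). Among the other pathway genes named, it differed for Plk1 (-1.38), Rrm2 (-1.26), Tk1 (-1.43), Cdkn2c (-1.22), Cdc20 (-1.10), Mcm5 (-1.02), Skp1 (-0.29) and Lin52 (0.76). The adjusted p was 0.000631 for Plk1, 0.00261 for Rrm2, 0.0132 for Tk1, 0.00419 for Cdkn2c, 0.00897 for Cdc20, 0.0217 for Mcm5, 0.0326 for Skp1 and 0.0474 for Lin52.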

How the results depend on the processing

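Of 870 recomputed log2 changes of the 10 genes, 791 kept their direction and side of the threshold, 29 lost and 1 gained a call, and 49 turned sign. None of those 49 was called (adjusted p of 0.352 or more). Kat5 and the other named genes were recomputed only for KO against control at the day or days for which they were picked as called. Of these 738 values, 714 kept both and 24 lost the call. Since these values were picked for a small adjusted p, the count does not describe the other values of these genes. Uncalled values and differences between the days were not recomputed for them. Values that turned sign were, with library totals alone, Ccnd2 in KO against control at day 3 (-0.023), the difference of the KO effect for Cdk4 (0.089), E2f1 (0.026) and Rb1 (0.089), day 5 against day 3 in KO for Ccnd3 (0.090) and Rb1 (0.090), and in control for Rb1 (0.0010). With no filter they were E2f1 at day 3 (0.011) and Rb1 in control over time (0.0059), and with only the groups compared in the fit the same (0.026 and 0.0043). With sex they were Ccnd2 (-0.11) and E2f1 (0.015) at day 3 and the Rb1 difference (0.015). With control day 3 replicates 1 and 2 summed they were Ccnd2 at day 3 (-0.0058) and the differences for Cdk4 (0.0029) and Rb1 (0.0032). Without KO day 3 replicate 3 and control day 5 replicate 4 together, chosen after seeing the data, they were Ccnd2 at day 3 (-0.0027), the Rb1 difference (0.16) and Rb1 in KO over time (0.060). The causes were not tested.

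Leaving out 1 library at a time gave, as log2 changes, -0.068 to 0.089 for Ccnd2 and -0.061 to 0.088 for E2f1 at day 3, -0.13 to 0.014 for E2f1 at day 5, differences of -0.032 to 0.14 for Cdk2, -0.057 to 0.047 for Cdk4, -0.17 to 0.025 for E2f1 and -0.085 to 0.085 for Rb1, changes over time in KO of -0.060 to 0.00046 for Ccnd3 and -0.10 to 0.068 for Rb1, and in control of -0.19 to 0.016 for Cdk6 and -0.099 to 0.041 for Rb1. The number of the 10 genes called was then 6 to 7 at day 3, 7 to 8 at day 5, 3 to 4 for the difference, 2 to 5 over time in KO and 7 in control. Over all genes 1275 to 2750 were called for the difference and 1024 to 1605 over time in KO, and of the other pathway genes 25 to 41 at day 3. The Ccne1 share at day 5 differed by -11.5 to -10.1 points (exact p = 0.0571, the smallest that 3 against 4 allows) and the Cdk4 share at day 5 by -0.238 to 0.205 points.

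Deviations of KO and control libraries with the same replicate number correlated at -0.0507 and -0.021 at day 3, and at 0.23, 0.155, -0.166 and 0.428 at day 5. Since 3 of these pairs lay below 0, the numbers were not taken to pair the libraries. With the number as a replicate block, 7, 7 and 4 of the 10 genes were called at day 3, at day 5 and for the difference, and E2f1 at day 3 turned to 0.021. With the embryo as a replicate block, 3 were called for the difference, without Ccne2 (-0.92, adjusted p = 0.0976), and 4 in KO and 6 in control over time, without Cdk4. No other call of the 10 genes changed in these 3 contrasts, and the block gave no value for KO against control within a day. The fit with only the groups compared gave none for the difference. Shallow KO day 3 replicate 3 limits the precision of the low genes.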
